A study of Mus musculus with 24 samples.

Results

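Large dense-core granules are the organelles in which neurons and endocrine cells store peptides and neurotrophic factors for regulated release. Granins, acidic proteins that aggregate in the trans-Golgi network, form much of the granule core, and prohormone convertases and carboxypeptidase E trim peptide precursors inside it. Cholinergic neurons of the basal forebrain release acetylcholine from small clear vesicles and also contain dense-core granules. The 9 genes described here, of 55414 gene identifiers in the deposited table, encode the granins Chga, Chgb, Scg2 and Scg3, the granin-related precursor Vgf, the convertase chaperone 7B2 (Scg5), the convertases PC1/3 (Pcsk1) and PC2 (Pcsk2), and carboxypeptidase E (Cpe). All 9 passed the filter on low counts. They were taken as a family by function, and the family was chosen by a measured value: Chgb was already known to be lower in choline-supplemented than in control-diet Ts65Dn neurons of these same libraries. The values of the 9 genes in that comparison, and in the genotype by diet interaction built on it, are therefore given as a description with no test.

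The libraries came from 24 male mice about 6 months old. In each, about 500 neurons immunoreactive for choline acetyltransferase were laser-captured from the medial septum and vertical diagonal band, and their RNA was sequenced as total RNA. Ts65Dn mice carry an extra chromosome with a segment of mouse chromosome 16 and a small part of chromosome 17 and serve as a model of Down syndrome; 2N mice are disomic controls from the same breeding. All mice had Ts65Dn dams, and the diet was given to the dam until weaning, after which every mouse ate the control diet. The groups were Ts65Dn with 5.0 g/kg choline chloride in the dam's diet (n = 8), Ts65Dn with 1.1 g/kg (n = 6), 2N with 5.0 g/kg (n = 4) and 2N with 1.1 g/kg (n = 6). Litters are not named in the labels, so mice of 1 group may share a dam, and the p-values measure the spread between these libraries only. The number that opens each animal's identifier was not balanced over the groups. It was 17 in 4 control-diet Ts65Dn, 4 control-diet 2N and 1 supplemented Ts65Dn libraries. It was 14 only in supplemented libraries, 1 of Ts65Dn and 1 of 2N. Diet and this number can therefore be told apart only in part.

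The libraries held 4688258 to 13443438 counts (median 10010353). Across 32 well-expressed genes of the triplicated segments, the mean log2 deviation was above 0 in 13 of 14 libraries labelled Ts65Dn and below 0 in 8 of 10 labelled 2N; the exceptions were supplemented Ts65Dn replicate 7 (-0.15) and control-diet 2N replicates 1 and 2 (0.11 and 0.06). Supplemented Ts65Dn replicates 2 and 5, whose columns stand among the supplemented 2N columns, were at 0.25 and 0.23 on this measure. Without replicates 2 and 5 the log2 fold change of Chgb was -1.13 against control-diet Ts65Dn and -1.14 against control-diet 2N, and that of Scg2 against supplemented 2N was -0.66 (adjusted p = 0.312 by edgeR). Without control-diet 2N replicate 1 and without replicate 2, Chgb in supplemented Ts65Dn against control-diet 2N was at -0.98 and -1.06. Without control-diet Ts65Dn replicate 3 and supplemented Ts65Dn replicate 7, the libraries with the fewest detected genes (13102 and 13141), Chgb was at -0.84 against control-diet Ts65Dn and at -1.01 against control-diet 2N. Chat mRNA was under 1 CPM in 6 libraries, of which 1, 3, 1 and 1 were supplemented Ts65Dn, control-diet Ts65Dn, supplemented 2N and control-diet 2N. Summed cholinergic markers were lowest in control-diet Ts65Dn replicate 3 (7.5 CPM), which also had the highest glutamatergic marker sum (1016.7 CPM, against 12.5 to 173.5 CPM in the other 23 libraries). Astrocyte and oligodendrocyte markers summed to 1339.0 to 2573.1 and 733.5 to 4066.7 CPM, so the captured material included glial RNA. The 7 GABAergic neuron markers summed to 498.1 to 1872.9 CPM, and the 9 cholinergic markers to 7.5 to 504.9 CPM. Mitochondrial ribosomal RNA took 30.7% ± 8.08 of counts in supplemented Ts65Dn libraries (SD, n = 8), against 20.3% ± 6.18 in control-diet Ts65Dn (n = 6), 20.3% ± 1.94 in supplemented 2N (n = 4) and 22.8% ± 2.44 in control-diet 2N (n = 6). In bulk libraries fewer cells of a type and less RNA per cell cannot be told apart.

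Several granule genes are textbook targets of cyclic AMP signalling, and proximal promoters are shown for the family members that carry its 8-base response element and for Chga. RefSeq promoters (GRCm38.p6, 250 bases before to 50 after the transcription start) matched 7 of the 9 genes, all but Vgf and Cpe. The full cyclic AMP response element TGACGTCA, which reads the same on both strands, was found in Chgb, Scg2 and Pcsk1, at 72, 68 and 78 bases before the start. It was present in 1.79% of 32851 promoters of the same length. The 5-base core TGACG, searched on both strands and overlapping the full element at both ends, was in all 7 promoters and in 20.8% of all promoters. Below are the 120 bases before the start of these 4 genes, each on the gene's own strand and with the matches in capitals. They lie at chr2:132781522-132781641 (plus strand) for Chgb, chr1:79440027-79440146 (minus strand) for Scg2, chr13:75089737-75089856 (plus strand) for Pcsk1 and chr12:102554821-102554940 (plus strand) for Chga.
Chgb: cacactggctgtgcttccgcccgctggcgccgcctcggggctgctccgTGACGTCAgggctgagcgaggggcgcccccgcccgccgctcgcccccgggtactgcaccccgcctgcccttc
Scg2: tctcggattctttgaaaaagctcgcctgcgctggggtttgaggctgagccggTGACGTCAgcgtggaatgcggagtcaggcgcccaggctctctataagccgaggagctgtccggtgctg
Pcsk1: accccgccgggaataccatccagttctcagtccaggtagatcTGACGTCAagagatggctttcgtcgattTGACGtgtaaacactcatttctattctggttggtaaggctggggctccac
Chga: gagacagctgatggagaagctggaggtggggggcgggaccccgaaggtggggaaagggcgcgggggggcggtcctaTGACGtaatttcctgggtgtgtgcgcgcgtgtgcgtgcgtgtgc
Chga carried a lone core 44 bases before its start, and Scg3, Pcsk2 and Scg5 carried lone cores as well. A match is a description of the letters in this window, not of a bound site.

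**Figure D1:**
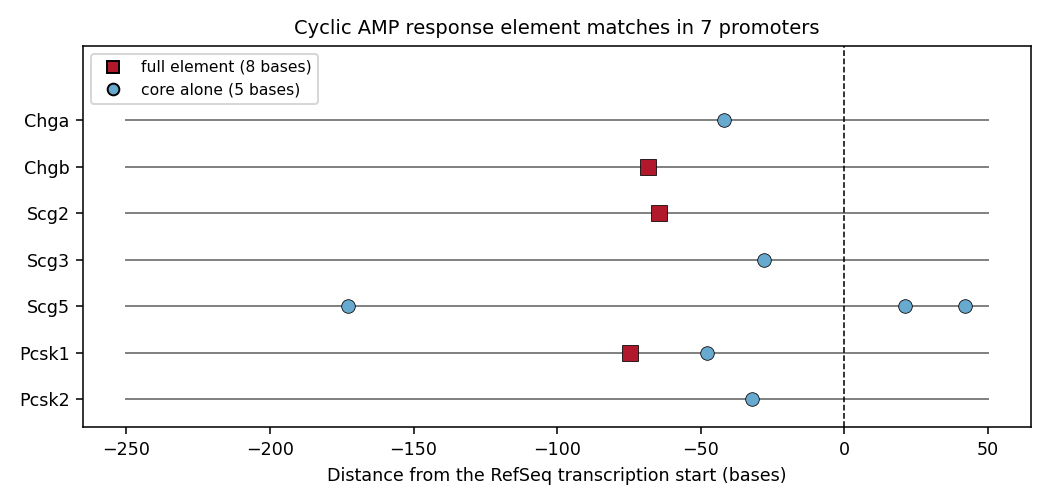
Positions of the full cyclic AMP response element (red squares) and of lone 5-base cores (blue circles) in the 7 promoters, in bases from the RefSeq transcription start (dashed line), over the 250 bases before to 50 after it. The full element of Chgb, Scg2 and Pcsk1 lies between 68 and 78 bases before the start; the other 4 genes have lone cores.

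Transcript levels spanned a wide range within the family. On the TPM scale, which is per length, Cpe was highest (403 ± 169 TPM, SD, n = 24), followed by Chga (253 ± 93.8), Chgb (138 ± 64.7), Scg3 (119 ± 72.9), Scg5 (109 ± 56.6), Scg2 (79.4 ± 35.9), Vgf (51.0 ± 23.5), Pcsk2 (15.4 ± 7.43) and Pcsk1 (5.01 ± 4.75). Cpe exceeded Chga in 24 of 24 libraries and Vgf exceeded Pcsk2 in 24 of 24. Both orders held within each library, while the TPM ranges of each pair overlapped across libraries. Chgb exceeded Scg3 in only 14 of 24 and Scg3 exceeded Scg5 in 12 of 24, so the order of these 3 was not set. Chga exceeded Chgb in 21 of 24, Scg5 exceeded Scg2 in 20, Scg2 exceeded Vgf in 18 and Pcsk2 exceeded Pcsk1 in 22. Of the 2 convertases, PC2 mRNA was the more abundant in those 22 libraries. Pcsk2 overlaps 2 annotated antisense genes and Scg3 overlaps 1 gene on the opposite strand; the strand setting of the authors' counting is not given in the sources used here.

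**Figure D2:**
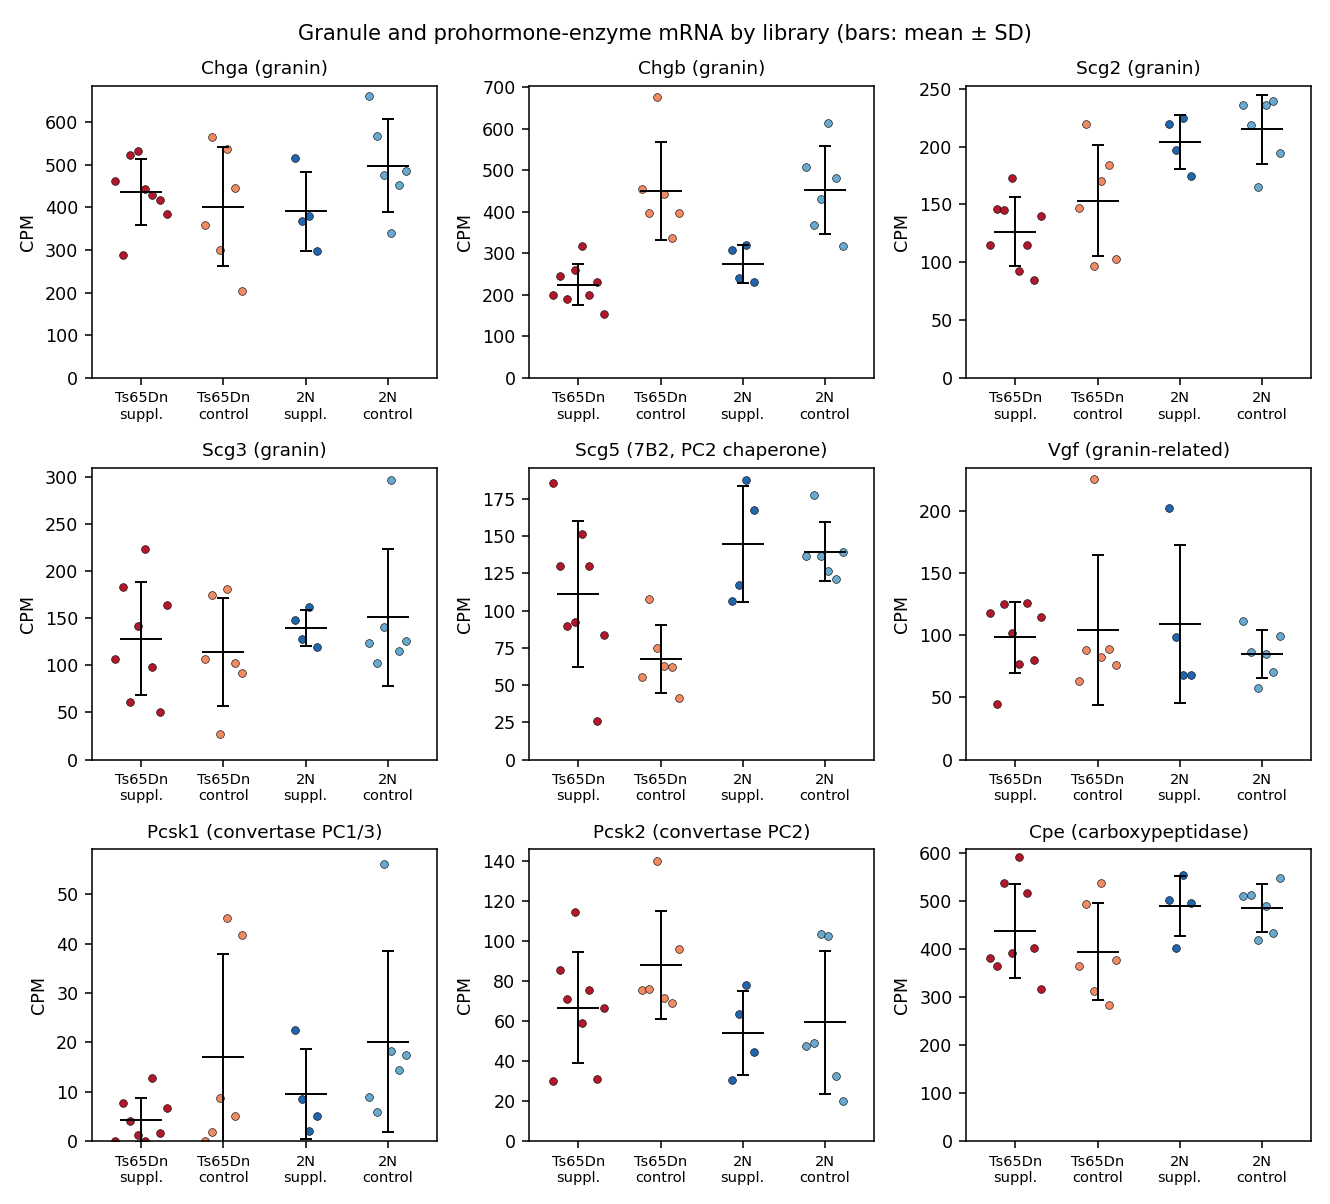
TMM-scaled CPM (vertical axis) of each of the 9 genes in each library (points) of the 4 groups, with the group mean and SD (bars, clipped at 0 for Pcsk1). All supplemented Ts65Dn points of Chgb, at 154.3 to 317.1 CPM, lie below all control-diet Ts65Dn points, at 336.7 to 677.6 CPM.

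The first comparison asked what maternal choline supplementation changed in Ts65Dn neurons. Chgb mRNA, encoding chromogranin B, a granule core protein, was at about 0.499 times its control-diet level, whereas its close relative Chga and the processing enzyme Cpe stood near their control-diet levels. Chgb measured 199.2, 246.0, 190.1, 260.7, 317.1, 199.8, 231.8 and 154.3 CPM in supplemented Ts65Dn libraries, against 454.3, 397.3, 677.6, 442.1, 336.7 and 397.7 CPM in control-diet Ts65Dn libraries. All 8 supplemented libraries lay below all 6 control-diet libraries. The means were 225 ± 50.4 CPM (SD, n = 8) and 451 ± 119 CPM (SD, n = 6), a fitted log2 fold change of -1.004 ± 0.20 (SE). This is the value that chose the family. The 1 of 9 genes that passed the adjusted threshold of 0.05 was Chgb itself, beside 0.13% of all 19967 genes tested. The 1 of 9 with ranges that did not overlap was also Chgb, beside 0.0701% of all genes. Both counts follow from that choice and are no further result about the family.

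The fitted log2 fold changes of the other 8 genes ran from -2.01 ± 1.01 for Pcsk1 to 0.72 ± 0.30 for Scg5, with Pcsk2 at -0.40, Scg2 at -0.28, Vgf at -0.08, Chga at 0.12, Cpe at 0.15 and Scg3 at 0.17. The median over the 9 was -0.08, beside 0.04 over all genes, and 5 of the 9 were negative, beside 48.0% of all genes. Scg5, whose product 7B2 is the chaperone of PC2, stood at 111 ± 48.9 CPM in supplemented Ts65Dn libraries (SD, n = 8) and 67.4 ± 22.6 CPM in control-diet ones (SD, n = 6), with overlapping ranges. On the TPM scale the median gene shifted by -0.14, and relative to it 8 of the 9 genes were negative, with Chga, Scg3 and Cpe at -0.06, -0.09 and -0.02, so the sign of these 3 depends on the scale.

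Pcsk1, the convertase PC1/3 and the least abundant of the 9, varied widely between libraries. It measured 0.0, 7.7, 4.0, 1.2, 0.0, 12.7, 1.7 and 6.7 CPM in supplemented Ts65Dn libraries, against 0.0, 1.9, 8.7, 45.2, 5.2 and 41.8 CPM in control-diet Ts65Dn libraries. Both ranges reach 0, and control-diet replicates 4 and 6 stand well above the rest. With the number that opens each animal's identifier as a factor in the fit its log2 fold change was 0.18 in place of -2.01; with a glial marker score it was -2.10.

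**Figure D3:**
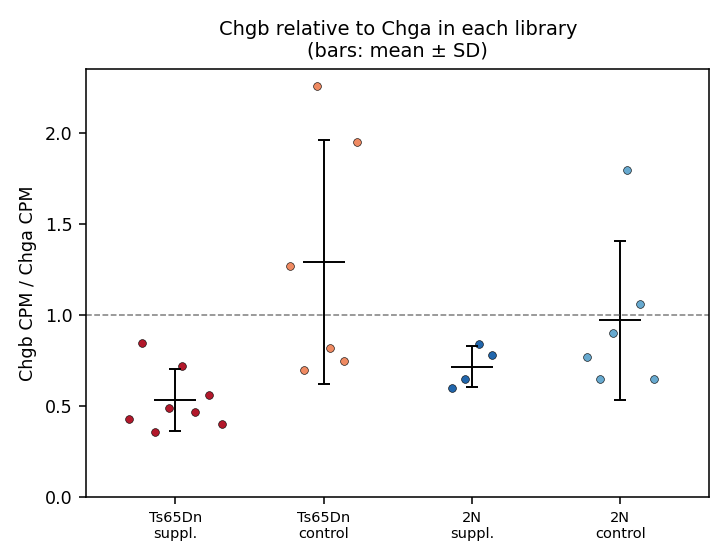
Ratio of Chgb to Chga CPM in each library (points) of the 4 groups, with mean and SD (bars); the dashed line marks equal CPM. All 8 supplemented Ts65Dn libraries lie between 0.36 and 0.85, and the control-diet Ts65Dn libraries spread from 0.70 to 2.26.

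The balance of the 2 chromogranins is a measure within each library. The ratio of Chgb to Chga CPM was 0.534 ± 0.168 in supplemented Ts65Dn libraries (SD, n = 8) and 1.29 ± 0.669 in control-diet Ts65Dn libraries (SD, n = 6). It was 0.718 ± 0.111 in supplemented 2N libraries (SD, n = 4) and 0.974 ± 0.437 in control-diet 2N libraries (SD, n = 6). The ratio was below 1 in all 8 supplemented Ts65Dn libraries and all 4 supplemented 2N libraries, but also in 3 of 6 control-diet Ts65Dn and 4 of 6 control-diet 2N libraries, so the ranges overlap. As a share of the summed TPM of the 9 genes, Chgb took 8.35% in supplemented Ts65Dn, 16.4% in control-diet Ts65Dn, 8.73% in supplemented 2N and 13.5% in control-diet 2N neurons. In the Ts65Dn groups the ratio and the share restate the Chgb values that chose the family and are not independent of them.

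**Figure D4:**
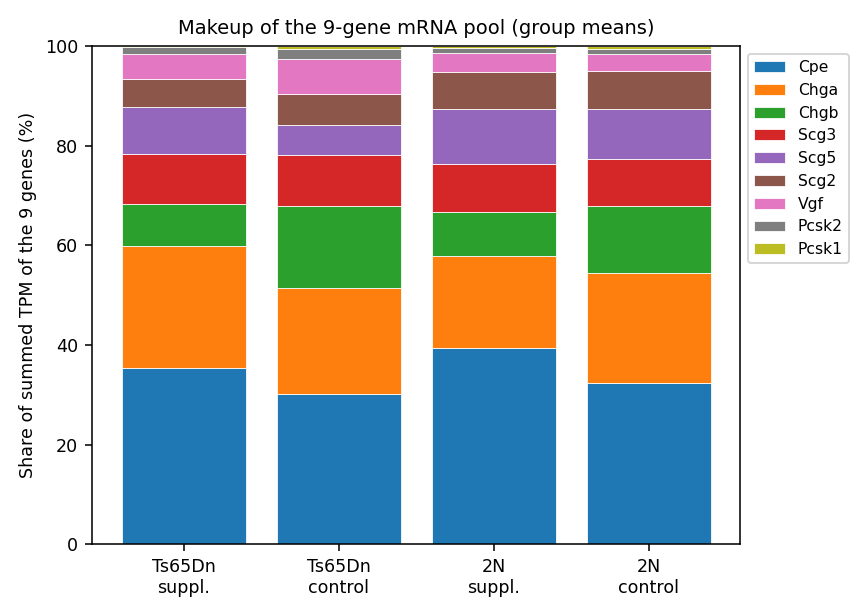
Share of the summed TPM of the 9 genes (vertical axis, %) taken by each gene, as group means. Chgb (green) takes 8.35% and 8.73% in the supplemented groups, against 16.4% and 13.5% in the control-diet groups, while Cpe (blue) takes the most in all 4 groups.

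Other measures also differed in median between the Ts65Dn groups, with overlapping ranges. Summed cholinergic markers had a median of 276.7 CPM (207.5 to 402.0) in supplemented Ts65Dn libraries and 130.0 CPM (7.5 to 212.8) in control-diet ones, with none of the 9 markers at 0 throughout; their part in the Chgb value was not tested. Glutamatergic markers summed to a median of 26.9 CPM (15.4 to 35.3) in supplemented and 91.1 CPM (28.0 to 1016.7) in control-diet Ts65Dn libraries, again with none of the 6 markers at 0 throughout. The 8 markers of neurons in general summed to a median of 3353.6 CPM (2653.4 to 4797.6) in supplemented and 4186.1 CPM (2954.4 to 4603.3) in control-diet Ts65Dn libraries, and their part was not tested. Without the 2 libraries of fewest detected genes, supplemented Ts65Dn replicate 7 and the control-diet replicate 3 rich in glutamatergic markers, the log2 fold change of Chgb was -0.84. Supplemented Ts65Dn replicates 2 and 5 had mitochondrial ribosomal RNA of 17.8% and 21.2%, within the range of the other groups, and Chgb levels of 246.0 and 317.1 CPM; the part of mitochondrial ribosomal RNA in the Chgb value was not tested. Chgb no longer passed the threshold without supplemented Ts65Dn replicate 6 (log2 fold change -0.97), with only the compared groups in the fit, with the glial score (-0.82) or with the number that opens each animal's identifier as a factor (-1.08); within that number it was -0.98 for 2 against 2 libraries and -1.54 for 1 against 4.

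**Figure D5:**
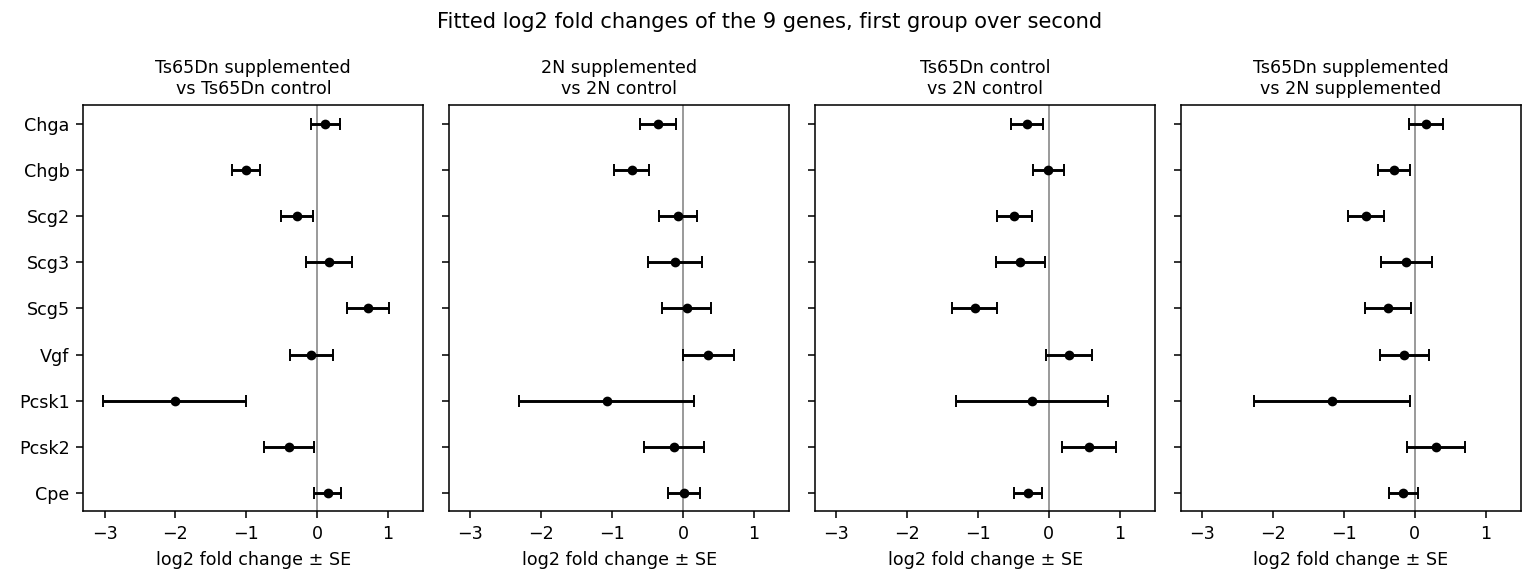
Fitted log2 fold change ± SE (horizontal axis) of each of the 9 genes in 4 comparisons, the first-named group over the second. Chgb lies at -1.004 and -0.72 in the diet comparisons of Ts65Dn and 2N neurons; Scg5 lies at -1.05 in control-diet Ts65Dn against control-diet 2N neurons.

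In 2N neurons the same diet comparison gave Chgb the same sign, without passing the test. Chgb measured 308.7, 240.7, 319.0 and 230.6 CPM in supplemented 2N libraries, against 508.5, 369.2, 430.3, 614.4, 481.0 and 316.9 CPM in control-diet 2N libraries. Of the 4 supplemented libraries, 3 were below every control-diet one and the highest just exceeded the lowest control-diet value. The log2 fold change was -0.72 ± 0.25 (SE), with an adjusted p of 0.566 by edgeR's quasi-likelihood test. None of the 9 genes passed by edgeR or by DESeq2, where 0.00501% of all genes passed by edgeR and 216 of 19967 by DESeq2. An unadjusted p under 0.05 held for 1 of the 9, beside 6.92% of all genes, and none had separate ranges, beside 1.34% of all genes. Chga stood at 390 ± 91.9 CPM in supplemented 2N (SD, n = 4) and 497 ± 109 CPM in control-diet 2N neurons (SD, n = 6), a log2 fold change of -0.35 ± 0.25. The remaining 7 lay between -1.08 ± 1.24 (Pcsk1) and 0.36 ± 0.36 (Vgf).

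The genotype by diet interaction, the Ts65Dn diet effect minus the 2N diet effect, is given as a description. For Chgb it was -0.28 ± 0.31 on the log2 scale, an approximate 95% interval of -0.89 to 0.33. Scg5 was at 0.67 ± 0.46.

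The comparison of genotypes on the control diet asked what the trisomy changed. Chgb had nearly equal means, at 451 ± 119 CPM in Ts65Dn (SD, n = 6) and 453 ± 106 CPM in 2N neurons (SD, n = 6), a log2 fold change of -0.01 with an approximate 95% interval of -0.43 to 0.41. This Chgb value uses the same control-diet Ts65Dn libraries that chose the family and is not independent of that choice. Scg5 was the gene of the family that stood apart. It measured 55.4, 107.7, 74.8, 62.9, 62.3 and 41.1 CPM in control-diet Ts65Dn libraries, against 136.3, 177.3, 136.3, 126.5, 121.1 and 139.1 CPM in control-diet 2N libraries. All 6 Ts65Dn libraries were below all 6 of 2N, at 0.483 times the 2N mean. The log2 fold change was -1.05 ± 0.32 (SE) and the adjusted p by edgeR 0.170, so it did not pass; across the alternatives run the adjusted p ranged from 0.0711 with DESeq2 to 0.567 with the glial score. Separate ranges held for 1 of the 9 genes, beside 0.631% of all genes.

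Pcsk2, the convertase that 7B2 assists, had the opposite sign to Scg5. It stood at 88.0 ± 27.1 CPM in control-diet Ts65Dn (SD, n = 6) and 59.4 ± 35.6 CPM in control-diet 2N neurons (SD, n = 6), a log2 fold change of 0.57 ± 0.38 with an adjusted p of 0.688. The ratio of the 2 genes was not tested. Scg2, which encodes secretogranin II, the precursor of secretoneurin, was at -0.49 ± 0.24 (adjusted p = 0.466). None of the 9 passed by edgeR or DESeq2, where 0.336% of all genes passed by edgeR and 326 of 19967 by DESeq2. An unadjusted p under 0.05 held for 1 of the 9, beside 10.9% of all genes. Of the 9, 7 were negative, beside 50.8% of all genes, with a median of -0.30 beside -0.02. The cholinergic markers had a median log2 fold change of -0.89 in the same comparison, 9 of 9 negative. Oligodendrocyte, astrocyte and GABAergic neuron markers had medians of -0.53 (10 of 10 negative), -0.48 (9 of 10) and -0.43 (7 of 7). Microglia and oligodendrocyte precursor markers went the other way, at 0.33 (3 of 8 negative) and 0.21 (1 of 4). Glutamatergic markers summed to a median of 91.1 CPM in control-diet Ts65Dn and 36.2 CPM in control-diet 2N libraries. The part of these markers in the granule values was not tested. Over the 12 fits that left out 1 library, the log2 fold change of Scg5 lay within -1.23 to -0.94.

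Among supplemented mice, Scg2 was the gene that separated the genotypes. It measured 115.2, 145.6, 145.2, 172.9, 92.4, 114.8, 84.8 and 139.5 CPM in supplemented Ts65Dn libraries, against 219.7, 197.3, 224.7 and 174.1 CPM in supplemented 2N libraries. All 8 Ts65Dn libraries were below all 4 of 2N, though the closest pair was 172.9 against 174.1 CPM. The 8 markers of neurons in general, none at 0 throughout, summed to a median of 3353.6 CPM (2653.4 to 4797.6) in supplemented Ts65Dn and 4494.0 CPM (4095.1 to 4911.8) in supplemented 2N libraries; their part in the Scg2 value was not tested. The log2 fold change was -0.69 ± 0.25 (SE) and the adjusted p by edgeR 0.398, so it did not pass. None of the 9 genes passed by edgeR or DESeq2, where 0.18% of all genes passed by edgeR and 409 of 19967 by DESeq2. An unadjusted p under 0.05 held for 1 of the 9, beside 9.49% of all genes. Separate ranges held for 1 of 9, beside 0.606% of all genes. Chgb was at -0.29 ± 0.23 (adjusted p = 0.881), and Scg5 at -0.38 ± 0.33 (adjusted p = 0.911). The Chgb value uses the same supplemented Ts65Dn libraries that chose the family and is not independent of that choice.

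Supplemented Ts65Dn neurons were last set against control-diet 2N neurons, the comparison across both factors. Chgb was lower, at 225 ± 50.4 CPM (SD, n = 8) against 453 ± 106 CPM (SD, n = 6), a log2 fold change of -1.01 ± 0.20, and 7 of the 8 supplemented Ts65Dn libraries were below the lowest 2N library. It passed the threshold here and in every alternative run, with log2 fold changes of -1.10 to -0.91 when single libraries were left out, but the comparison uses the same supplemented Ts65Dn libraries that chose the family and is not independent of it. Scg2 was at -0.77 ± 0.23, with 126 ± 29.8 CPM in supplemented Ts65Dn (SD, n = 8) and 215 ± 29.8 CPM in control-diet 2N neurons (SD, n = 6). Of the 8 supplemented Ts65Dn libraries, 7 were below the lowest 2N library. The adjusted p of Scg2 was 0.147 by edgeR and 0.0132 by DESeq2. In this comparison edgeR passed 109 and DESeq2 341 of all 19967 genes. The markers of neurons in general had a median sum of 3353.6 CPM in supplemented Ts65Dn and 4698.4 CPM (4196.4 to 5209.5) in control-diet 2N libraries, and their part in both values was not tested. Pcsk1 was at -2.25 ± 1.02 (adjusted p = 0.457). In all, 1 of the 9 genes passed, lower, beside 0.546% of all genes, and none had separate ranges, beside 0.306%.

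The rest of the granule pathway was examined through lists of genes fixed by function with earlier results of these data known. None of 11 measured other processing enzymes and cofactors passed in any comparison by edgeR or DESeq2. None had an unadjusted p under 0.05, beside 6.92% to 10.9% of all genes per comparison. In that list Pcsk1n, encoding the PC1/3 inhibitor proSAAS, was abundant at a median of 279 CPM, and Pam, which amidates peptides, at 103 CPM. Furin, the constitutive convertase of the Golgi, stood at 42.8 ± 18.5 CPM in control-diet Ts65Dn (SD, n = 6) and 21.6 ± 6.65 CPM in control-diet 2N neurons (SD, n = 6), with an adjusted p of 0.461. None of 22 genes of granule membrane, biogenesis and exocytosis passed by either tool. Per comparison 0 to 3 of the 22 had an unadjusted p under 0.05, beside 6.92% to 10.9% of all genes. Ptprn, the granule membrane protein IA-2, had the same signs as Chgb with diet in Ts65Dn, at 225 ± 47.3 CPM in supplemented and 310 ± 84.4 CPM in control-diet Ts65Dn neurons (adjusted p = 0.412). Cadps, which primes granules for release, was at 581 ± 59.1 CPM in supplemented and 439 ± 53.2 CPM in control-diet 2N neurons (adjusted p = 0.763).

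Most of the peptide precursors listed had sparse mRNA in the captured material, and the peptides themselves were not measured. Of 27 precursors of neuropeptides and secreted factors, 14 passed the filter on low counts. Penk, the enkephalin precursor, was the most abundant at a median of 133 CPM, and it lay lower in supplemented Ts65Dn (93.0 ± 39.2 CPM, SD, n = 8) than in supplemented 2N neurons (236 ± 80.6 CPM, SD, n = 4), with an adjusted p of 0.210. On the control diet Penk stood at 103 ± 77.5 CPM in Ts65Dn and 184 ± 60.1 CPM in 2N neurons (adjusted p = 0.384). Gal, the galanin precursor, had a median of 0.11 CPM and was at 0 in 12 of 24 libraries. No precursor passed by edgeR in any comparison. Per comparison 1 to 4 of the 14 had an unadjusted p under 0.05, beside 6.92% to 10.9% of all genes. DESeq2 passed Pdyn, the dynorphin precursor, lower in supplemented Ts65Dn than in supplemented 2N neurons, at means of 0.0143 and 4.06 CPM. In that comparison DESeq2 passed 409 of all 19967 genes, where edgeR passed 36.

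Small clear vesicles, which carry acetylcholine, were the other secretory organelle examined. Of 21 genes, Sv2b, a vesicle membrane glycoprotein, was lower in supplemented than in control-diet Ts65Dn neurons, at 8.10 ± 6.75 CPM (SD, n = 8) and 78.7 ± 70.8 CPM (SD, n = 6), a log2 fold change of -3.29 ± 0.73 with an adjusted p of 0.0464 by edgeR. It was also lower than in control-diet 2N neurons (-2.96 ± 0.73, adjusted p = 0.0392), as was Syt1, the calcium sensor of synaptic vesicles (-0.75 ± 0.18, adjusted p = 0.0307). These calls depended on single libraries. When single libraries were left out, Sv2b failed the threshold in 9 of 14 fits against control-diet Ts65Dn and in 8 of 14 against control-diet 2N, and Syt1 failed in 11 of 14, with adjusted p of 0.00203 to 0.246 over all these fits. The other comparisons passed none of the 21 genes by edgeR. An unadjusted p under 0.05 held for 7 of 21 in supplemented against control-diet Ts65Dn, beside 9.62% of all genes. It held for 5 in supplemented Ts65Dn against control-diet 2N (beside 9.17%) and 5 in control-diet Ts65Dn against 2N (beside 10.9%). The counts were 0 in supplemented against control-diet 2N (beside 6.92%), 2 in supplemented Ts65Dn against 2N (beside 9.49%) and 1 in the interaction (beside 8.43%). DESeq2 also passed Unc13a, higher in both Ts65Dn groups than in control-diet 2N, and Cplx1, higher in supplemented than in control-diet Ts65Dn. In the latter comparison DESeq2 passed 236 of all genes, where edgeR passed 26. Against control-diet 2N, DESeq2 passed 326 of all genes in control-diet Ts65Dn and 341 in supplemented Ts65Dn, where edgeR passed 67 and 109. Sv2b is also expressed by glutamatergic neurons, whose marker sums differed between the same Ts65Dn groups as given above. The part of these markers in the Sv2b values was not tested.

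Activity-response genes were read beside the granule genes because granule genes such as Vgf and Scg2 are textbook targets of neuronal activity. None of 20 passed by edgeR in any comparison. Per comparison 1 to 8 of the 20 had an unadjusted p under 0.05, beside 6.92% to 10.9% of all genes. In supplemented against control-diet Ts65Dn neurons 17 of 20 were negative, beside 48.0% of all genes, with a median of -1.50. The highest count, 8 of 20 at an unadjusted p under 0.05, was in this comparison, beside 9.62% of all genes. DESeq2 passed Arc and Egr4 in it, beside 236 of all 19967 genes. It passed Arc in control-diet Ts65Dn against control-diet 2N, beside 326 of all genes. Arc stood at 40.9 ± 21.4 CPM in supplemented Ts65Dn (SD, n = 8), 124 ± 80.1 CPM in control-diet Ts65Dn (SD, n = 6) and 35.9 ± 10.6 CPM in control-diet 2N neurons (SD, n = 6). In control-diet Ts65Dn against control-diet 2N neurons 16 of 20 were positive with a median of 1.10, where 50.8% of all genes were negative. In that comparison Vgf was at 0.29, Chgb at -0.01 and Scg2 at -0.49. In control-diet Ts65Dn libraries the summed activity-response genes were highest in replicates 3, 6 and 5, at 1390.1, 908.0 and 774.9 CPM. Replicates 1, 2 and 4 were at 421.2, 412.0 and 314.7 CPM. Replicates 3, 5 and 6 were also those of this group with Chat under 1 CPM, the lowest cholinergic and the highest glutamatergic sums. The part of these libraries in the activity-response medians was not tested. Any link of the granule genes with the activity-response genes was not tested. The 398 other tested genes with the full cyclic AMP response element had a median of 0.12 in supplemented against control-diet Ts65Dn neurons, beside 0.04 over all genes. In control-diet Ts65Dn against control-diet 2N neurons their median was -0.13, beside -0.02. In the other comparisons their medians lay between -0.07 and 0.16, beside -0.06 to 0.13 over all genes. The part of this element in the granule values was not tested.

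Across the 24 libraries the 9 genes did not vary as 1 block. Spearman's rho between pairs of them, on log2 CPM, ran from -0.30 for Chga and Pcsk2 to 0.53 for Scg5 and Cpe, and was 0.05 for Chga and Chgb. Of 3653 protein-coding genes with a mean log2 CPM of at least 5, those most like the mean of the family were Hmgcs1 (0.80), Scarb2 (0.77), Adgra1 (0.72), Ubxn4 (0.71), Dclk1 (0.69), Hsp90ab1 (0.69), Sparcl1 (0.68), Nptn (0.68), Ckap5 (0.68) and Atp6v0a1 (0.67), where the median gene had 0.015. Those most like Chgb alone were Bod1l (0.75), Rgs17 (0.73), Nptxr (0.69), Zeb2 (0.69) and Epha4 (0.68), where the median gene had 0.009. These values describe libraries that share depth, capture and group differences.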

How the data were processed

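Per the labels' protocols, RNA of about 500 laser-captured neurons per mouse was prepared with a stranded total RNA kit for picogram input and sequenced as single reads. Trimmomatic 0.39, STAR and RSEM are named in the submitters' processing notes, with the builds GRCm39 and mm10 given no role. The authors deposited RSEM expected counts and TPM per gene; all 24 columns of the series table equal the per-sample expected counts within 0.006. The supplemented groups hold 8 and 4 libraries by label, where the design text states 6 per group. GENCODE M21 gave symbols to 52081 of 55414 identifiers.

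The members and gene lists were chosen with earlier results of these data known. Rounded expected counts of all 24 libraries were fitted together in edgeR 4.0.16 (R 4.3.3) with TMM scaling, filterByExpr (minimum count 10, 19967 genes tested) and the quasi-likelihood F test, with Benjamini-Hochberg adjustment over all tested genes and a threshold of 0.05. The SE is the absolute log2 fold change divided by the square root of F, and approximate 95% intervals are 1.96 SE. CPM are scaled by TMM. TPM used a pseudocount of 1 and serves for levels between genes. The steps were tested on simulated data. Alternatives were DESeq2 1.42.0, its size factors, no filter, compared groups alone, the identifier prefix as a factor, a glial score, and libraries left out; leaving out supplemented Ts65Dn replicates 2 and 5, whose columns stand among supplemented 2N columns while their labels say Ts65Dn, and the dosage check of triplicated genes were added after seeing the data. Genes were named by a fixed rule: all 9 members, per other list up to 4 genes past the threshold or else at most 2 of smallest p, and the likest genes by Spearman's rho. Protein sequences were not analysed here.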

Additional observations from a re-analysis of the deposited data

Results flagged for a closer look

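Within groups of 4 to 8 libraries, the highest or lowest CPM of a gene was compared with the nearest other library by Dixon's ratio. Of 36 gene and group sets 5 stood out, where chance gives about 1 in 20. Chgb in control-diet Ts65Dn replicate 3 (677.6 CPM) and Vgf in the same library (225.8 CPM) stood above the rest of that group; this library also had the highest activity-gene sum (1390.1 CPM) and glutamatergic marker sum (1016.7 CPM), and their part in the values was not tested. Without it the log2 fold change of Chgb in supplemented against control-diet Ts65Dn neurons was -0.84. In control-diet 2N neurons, Pcsk1 stood high in replicate 3 (56.1 CPM), Scg3 in replicate 4 (296.6 CPM) and Scg5 in replicate 2 (177.3 CPM).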

How the results depend on the processing

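No paired analysis was possible because the replicate numbers follow accession order and pair no libraries. The number of all genes that passed depended strongly on the settings. DESeq2 passed 236 in supplemented against control-diet Ts65Dn, 326 in control-diet Ts65Dn against 2N, 216 in supplemented against control-diet 2N, 409 in supplemented Ts65Dn against 2N, 341 in supplemented Ts65Dn against control-diet 2N and 268 in the interaction; in the same order, no filter on low counts passed 218, 256, 33, 200, 256 and 125. In the first 4, the compared groups alone passed 6, 3, 2 and 91. The identifier prefix as a factor passed 15 in supplemented against control-diet Ts65Dn, 28 in control-diet Ts65Dn against 2N and 12 in the interaction. The glial score passed 2 in control-diet Ts65Dn against 2N, 59 in supplemented Ts65Dn against 2N, 60 in supplemented Ts65Dn against control-diet 2N and 5 in the interaction. Without the 2 low-complexity libraries, those with the fewest detected genes (control-diet Ts65Dn replicate 3 and supplemented Ts65Dn replicate 7) the counts were 77 in supplemented against control-diet Ts65Dn, 4 in control-diet Ts65Dn against 2N, 2 in supplemented against control-diet 2N, 62 in supplemented Ts65Dn against 2N and 11 in the interaction. Without supplemented Ts65Dn replicates 2 and 5 they were 69, 150, 228 and 24 in supplemented Ts65Dn against control-diet Ts65Dn, against supplemented 2N, against control-diet 2N and in the interaction. Leaving out 1 library gave 12 to 80 in supplemented against control-diet Ts65Dn, 4 to 127 in control-diet Ts65Dn against 2N, 0 to 2 in supplemented against control-diet 2N, 0 to 72 in supplemented Ts65Dn against 2N and 1 to 12 in the interaction.

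Of the 9 genes, only Chgb, whose value chose the family, passed in supplemented against control-diet Ts65Dn. The count was 0 with the prefix as a factor, the compared groups alone or the glial score. It was 0 to 1 when 1 library was left out, and the cause was not tested. DESeq2 passed 2 (Chgb and Scg2) in supplemented Ts65Dn against control-diet 2N. On the TPM scale 8 of 9 genes were negative in supplemented against control-diet Ts65Dn. On the log2 scale of the counts, the sign of fold changes turned as follows. For supplemented against control-diet Ts65Dn, the prefix gave Pcsk1 0.178 and Chga -0.132, the glial score Scg3 -0.109 and Vgf 0.463, the fit without the low-complexity libraries Vgf 0.359, and that without replicates 2 and 5 Scg3 -0.139 and Vgf 0.092. For the interaction, the glial score gave Chgb 0.052, Cpe -0.105, Scg3 -0.491 and Vgf 0.666, the fit without the low-complexity libraries Pcsk2 0.034, and that without replicates 2 and 5 Scg3 -0.027; with 1 library left out the extremes past 0 were Scg3 -0.023 and Vgf 0.041. For control-diet Ts65Dn against 2N, Chgb (-0.01) was 0.056 with DESeq2, 0.057 with its size factors, 0.034 with the prefix and 0.015 with the compared groups alone; Scg3 was 0.24 and Vgf -0.64 with the glial score, and Vgf -0.10 without the low-complexity libraries. For supplemented against control-diet 2N, the glial score gave Scg2 0.016, Scg3 0.38 and Vgf -0.20, and the prefix gave Scg3 0.044, Scg5 -0.24, Pcsk1 0.57, Pcsk2 0.37 and Cpe -0.14. For supplemented Ts65Dn against 2N, Scg3 was 0.008 without the low-complexity libraries, and Vgf was 0.013 with the prefix, 0.031 with the glial score and 0.022 without replicates 2 and 5. For supplemented Ts65Dn against control-diet 2N, the glial score gave Scg3 0.14 and Vgf -0.17. With 1 library left out, supplemented against control-diet Ts65Dn turned Chga to -0.020, Scg3 to -0.016 and Vgf to 0.32; control-diet Ts65Dn against 2N gave Chgb -0.17 to 0.10, Pcsk1 -0.81 to 0.40 and Vgf -0.10 to 0.40; supplemented against control-diet 2N gave Cpe -0.051 to 0.094, Pcsk2 -0.36 to 0.10, Scg3 -0.20 to 0.20, Scg5 -0.092 to 0.18 and Vgf -0.12 to 0.53; supplemented Ts65Dn against 2N gave Scg3 -0.279 to 0.008 and Vgf -0.33 to 0.33; supplemented Ts65Dn against control-diet 2N gave Pcsk2 -0.008 to 0.40 and Scg3 -0.391 to 0.078. Pcsk1, the least abundant of the 9, had 0 counts in 3 libraries, which held 7761110, 10849440 and 9591709 counts in all.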
